A study of Mus musculus with 12 samples.

Results

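The genes studied here were the 8 mouse genes of the RSK, MSK and MNK families, protein kinases directly downstream of the mitogen-activated protein kinase (MAPK) ERK. They were taken by gene name and by no rule on their values, with earlier results of these data known. They were 8 of the 54232 genes in the count table. The 4 ribosomal S6 kinase (RSK) genes were Rps6ka1 (RSK1), Rps6ka2 (RSK3), Rps6ka3 (RSK2) and Rps6ka6 (RSK4). The 2 mitogen- and stress-activated kinase (MSK) genes were Rps6ka4 (MSK2) and Rps6ka5 (MSK1), and the 2 MAPK-interacting kinase (MNK) genes were Mknk1 (MNK1) and Mknk2 (MNK2). All 8 had enough counts to be tested.

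The samples were 12 SVR tumors grown in nude mice, with 3 tumors in each of 4 treatment groups. Control mice received vehicle, and the other groups received trametinib at 1 mg/kg, cediranib at 3 mg/kg or the combination of both at these doses, given each day by oral gavage, according to the labels until the tumor ulcerated or reached a size limit. No source used here gives the time on treatment of each tumor, which could then differ between groups. SVR is a single mouse endothelial cell line transformed by activated H-ras, used as a model of angiosarcoma, and the strain on the labels is C57BL/6. Trametinib inhibits MEK, the kinase that activates ERK, and cediranib inhibits the receptors for vascular endothelial growth factor. Tumor cells and host tissue were both of mouse origin, so that their transcripts were counted together, and fewer cells of a type cannot be told apart from less RNA per cell. The methods describe an injection under the flank skin of each mouse, while the labels do not number the mice, and p-values measure the spread between these tumors.

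In cells stimulated by growth factors, ERK phosphorylates RSK, MSK and MNK proteins, and p38 also activates MSK and MNK. RSK proteins need a second kinase, PDK1, and act on ribosomal protein S6, on regulators of cell survival such as BAD and on transcription factors. MSK proteins sit in the nucleus, where they phosphorylate CREB and histone H3 at immediate early genes. MNK proteins bind the scaffold eIF4G and phosphorylate the cap-binding protein eIF4E. These activities depend on phosphorylation, which RNA sequencing does not measure, and the values below are transcript levels only.

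Each library held 9478865 to 11666094 counts over all genes. Levels are given as CPM, the count of a gene relative to all counts of its library after TMM scaling, and a count of 3 in a library was worth 0.251 to 0.349 CPM. A gene was called when the quasi-likelihood test of edgeR gave a false discovery rate (FDR) under 0.05 over the 12897 genes tested and the log2 fold change was 1.5 or more in either direction. Markers showed host tissue of unequal amount: 12 skeletal muscle genes summed to 17400 CPM in control tumor 2 and 24883 CPM in trametinib tumor 2, against 7.07 to 2156 CPM in the other 10 tumors. Epidermal genes (25, without keratins) summed to 360 to 553 CPM in the combination tumors, 51.7 to 105 CPM in control, 45.4 to 73.1 CPM after trametinib and 82 to 297 CPM after cediranib. Fibroblast genes (10) summed to 2065 to 21114 CPM in control and 8114 to 36957 CPM after trametinib. They summed to 1610 to 6768 CPM after cediranib and 2652 to 5343 CPM after the combination. T cell genes (7) summed to at most 1.72 CPM in any tumor, with Cd3g at 0 in all 12.

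Among the 8 kinases, Rps6ka2 was the gene that changed most. It fell after trametinib and after the combination, while Mknk2 rose in both by a smaller amount. The sequences upstream of the starts of these 2 genes are shown because they are the members with a change at an FDR under 0.05, and that of Rps6ka4 because it held a match to the AP-1 motif, bound by FOS and JUN proteins. Each line gives the 250 bases before the RefSeq start (GRCm38.p6), 5′ to 3′ on the strand of the gene. Capitals mark every match, on either strand, to any of 7 motifs.
Rps6ka2 (chr17:7169865-7170114, plus strand): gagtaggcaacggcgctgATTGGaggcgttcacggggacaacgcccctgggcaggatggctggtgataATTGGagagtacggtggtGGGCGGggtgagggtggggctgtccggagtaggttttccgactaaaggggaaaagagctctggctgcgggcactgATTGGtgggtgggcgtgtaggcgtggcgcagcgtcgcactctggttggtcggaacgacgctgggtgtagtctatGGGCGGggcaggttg
Mknk2 (chr10:80676294-80676543, minus strand): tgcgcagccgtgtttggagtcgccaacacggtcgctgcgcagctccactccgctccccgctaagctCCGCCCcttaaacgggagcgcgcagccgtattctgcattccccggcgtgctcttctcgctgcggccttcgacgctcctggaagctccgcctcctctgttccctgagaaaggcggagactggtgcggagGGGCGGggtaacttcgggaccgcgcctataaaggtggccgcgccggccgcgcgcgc
Rps6ka4 (chr19:6840628-6840877, minus strand): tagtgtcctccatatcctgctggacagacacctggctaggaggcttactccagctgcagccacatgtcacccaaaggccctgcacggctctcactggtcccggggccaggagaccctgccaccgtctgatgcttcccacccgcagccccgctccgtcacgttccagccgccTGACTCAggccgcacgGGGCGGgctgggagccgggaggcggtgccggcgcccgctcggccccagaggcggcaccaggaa

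The motifs searched were ETS (CCGGAAG), the cAMP response element bound by CREB (TGACGTCA), AP-1 (TGANTCA), EGR (GCGNGGGCG), E-box (CACGTG), GC box (GGGCGG) and CCAAT box (CCAAT). An EGR match can overlap a GC box, and a GC box can overlap a CCAAT box. The window of Rps6ka2 held 2 GC boxes and 3 CCAAT boxes, the capitals in its line, and no match to the ETS, CREB, AP-1, EGR or E-box letters. GC boxes were in 32.7% and CCAAT boxes in 33.8% of 32851 RefSeq promoter windows of the same length. The window of Mknk2 held 2 GC boxes and none of the other motifs. The RefSeq start that it precedes lies 1819 bases inside the gene as the count table bounds it. The window of Rps6ka4 held 1 AP-1 match, 79 to 73 bases before the start, and 1 GC box; AP-1 matches were in 6.75% of all windows. Of the other members with a window, Rps6ka1 held 1 EGR match (4.7% of all windows) and Mknk1 held 1 E-box (6.02%) in the window of the start nearest to the end of the gene in the table. A RefSeq window was found for 7 of the 8 genes, and no member held an ETS match (6.91% of all windows) or a cAMP response element (1.55%). These matches describe letters in a window and were not tested for binding.

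Rps6ka2 encodes RSK3 and lies at chr17:7170115-7303315 on the plus strand (GRCm38). It is a protein-coding gene that shares no exon bases with another gene in GENCODE M21. Its level was 105, 193 and 123 CPM in the control tumors, 31.0, 26.2 and 22.1 CPM in the trametinib tumors, 169, 96.3 and 178 CPM in the cediranib tumors and 21.2, 19.9 and 11.9 CPM in the combination tumors. All 6 tumors that received trametinib lay below all 6 that did not, and the groups without trametinib overlapped each other. The highest level after trametinib alone was 31.0 CPM and the lowest in a control tumor was 105 CPM. These values rest on 128 to 1903 counts per library.

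Against control, Rps6ka2 was 5.30-fold lower after trametinib (log2 fold change −2.41, SE 0.30, FDR 0.000873 by edgeR) and 7.93-fold lower after the combination (−2.99, SE 0.31, FDR 0.00045). By p-value it ranked 61 and 16 of 12897 genes in these comparisons. Against the cediranib tumors it was lower by −3.07 in the combination tumors (SE 0.31, FDR 0.000384) and by −2.49 in the trametinib tumors (SE 0.30, FDR 0.000666). It was 1 of 8 members called in each of these comparisons. The share of all genes called was 2.4% for trametinib against control (1.43% downward), and the combination called 3.61% against control (1.71% downward). Against the cediranib tumors the combination called 2.45% (1.16% downward) and trametinib 3.49% (1.97% downward). Comparisons that share control or cediranib tumors are not independent of each other.

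Cediranib alone gave no detectable difference in Rps6ka2 (0.08, 95% interval −0.54 to 0.70, FDR 0.999). The combination tumors lay below the trametinib tumors without overlap, but the difference of −0.58 (95% interval −1.23 to 0.07, FDR 0.335) did not pass the test. The effect of cediranib in the presence of trametinib did not differ detectably from its effect without it (difference −0.66, SE 0.41, FDR 0.767), and edgeR called 0% of all genes for such a difference. At an unadjusted p under 0.05 it had 909 genes (7.05%) and 1 of 8 members, Rps6ka6, and DESeq2 called 29 genes. When each tumor was left out in turn, the change in Rps6ka2 ran from −2.59 to −2.11 for trametinib against control and from −3.17 to −2.69 for the combination against control, and the gene remained called each time.

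**Figure D1:**
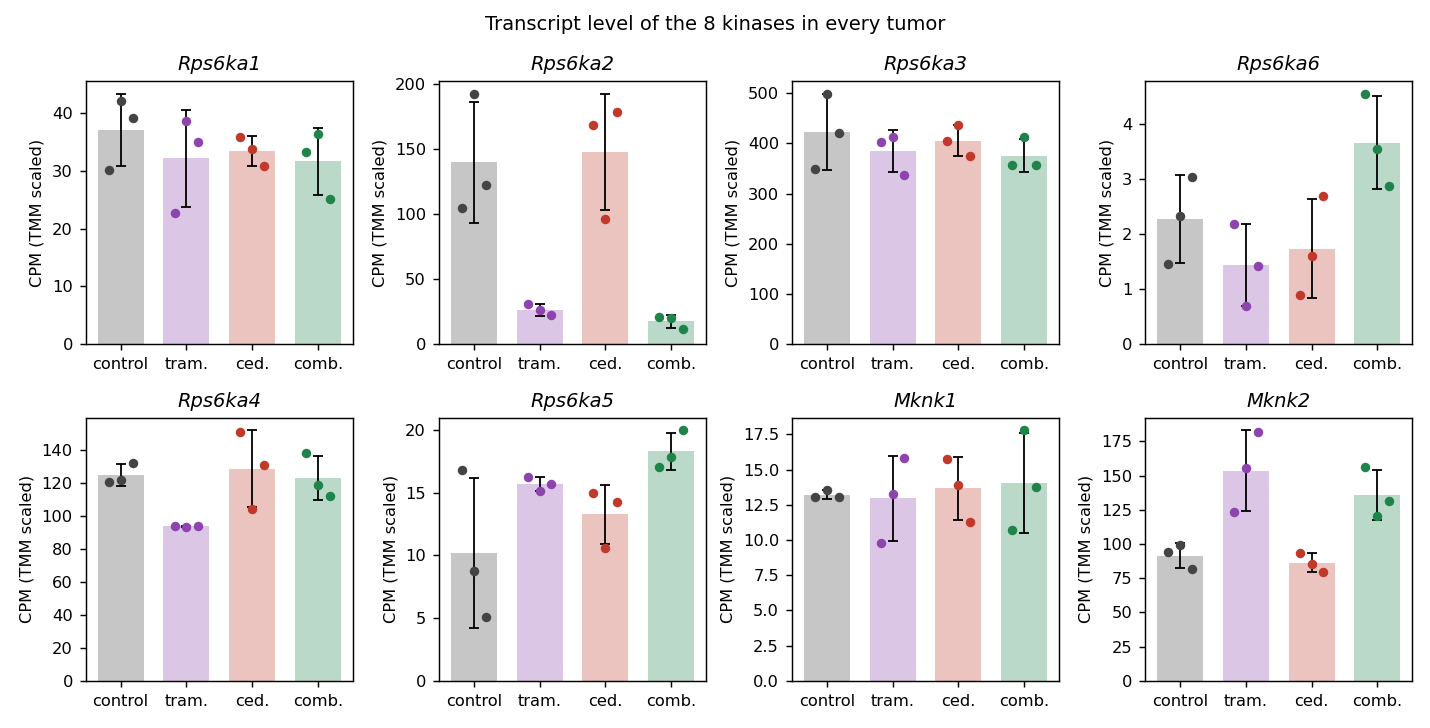
CPM (TMM scaled) of each kinase gene by treatment, with a separate linear axis for each gene. Points are tumors, bars are means of 3 tumors and error bars are SD; the trametinib and combination points of Rps6ka2 lie at 11.9 to 31.0 CPM, below all control and cediranib points, while the points of Rps6ka3 and Mknk1 overlap across groups.

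Endothelial markers moved in the same direction as Rps6ka2. The 12 markers summed to 210 to 441 CPM in control tumors, 52.8 to 114 CPM after trametinib, 123 to 331 CPM after cediranib and 33.9 to 85.3 CPM after the combination. Of the 10 tested, 4 fell after trametinib and 6 after the combination, and 0 rose, where 3.47% and 5.13% of all genes fell. Pecam1, an adhesion protein of endothelial cells, fell by 2.38 (SE 0.47, FDR 0.0111) after trametinib and by 2.93 (SE 0.49, FDR 0.0059) after the combination on the log2 scale. Flt1, which encodes the VEGF receptor VEGFR1, fell by 1.82 (SE 0.35, FDR 0.00946) and by 1.41 (SE 0.34, FDR 0.0248). Emcn was at 0 in the 3 trametinib tumors and had at most 3 counts in any library. SVR cells are themselves of endothelial origin, so that markers of tumor cells and of host vessels cannot be told apart.

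The mean log2 level of the 10 tested endothelial markers, used as a score, was 3.06 to 4.28 in control tumors, 1.77 to 2.33 after trametinib, 2.29 to 3.73 after cediranib and 0.94 to 1.92 after the combination. Since the score did not overlap between control tumors and either group that received trametinib, its part and that of the drug cannot be told apart. With this score in the model, a choice made after seeing the data, the change in Rps6ka2 was −2.90 after trametinib (FDR 0.00734) and −3.68 after the combination (FDR 0.0352). In the same model 13 genes in all passed an FDR of 0.05 for the combination against control, down from 1287. With the mean log2 level of 20 epidermal genes in the model, the changes were −2.28 (FDR 0.002) and −3.42 (FDR 0.017). Macrophage genes (11) summed to 394 to 692 CPM in control tumors, 307 to 439 CPM after trametinib, 286 to 448 CPM after cediranib and 179 to 318 CPM after the combination, and 4 of 11 fell after the combination. Erythroid genes (6, of which 1 was at 0 in all 12 tumors) summed to 74.0 to 1791 CPM in control tumors and 15.1 to 16.1 CPM after the combination, and 4 of the 5 tested fell. The part of macrophages and red cells in the Rps6ka2 result was not tested.

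**Figure D2:**
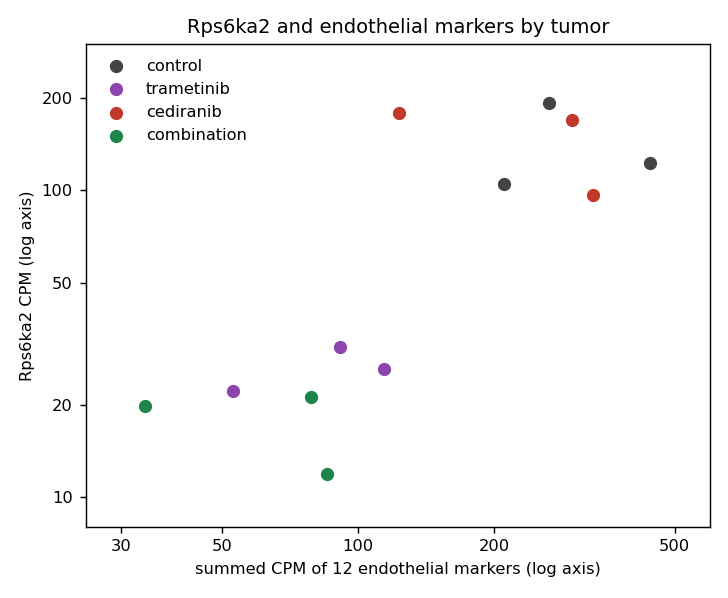
Rps6ka2 CPM (vertical log axis) against the summed CPM of 12 endothelial markers (horizontal log axis), with 1 point for each of the 12 tumors. Trametinib and combination tumors lie at the lower left, with endothelial sums of 33.9 to 114 CPM, and control and cediranib tumors have sums of 123 to 441 CPM.

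The other RSK genes did not follow Rps6ka2. Rps6ka3, which encodes RSK2 and is mutated in Coffin-Lowry syndrome in people, had 349, 499 and 420 CPM in control tumors, 403, 413 and 337 CPM after trametinib, 405, 436 and 375 CPM after cediranib and 357, 414 and 357 CPM after the combination. The 4 groups overlapped, and the log2 fold changes against control were −0.14 (95% interval −0.45 to 0.17) for trametinib, −0.06 (−0.37 to 0.25) for cediranib and −0.17 (−0.48 to 0.14) for the combination. These intervals do not reach a doubling or a halving, which is 1 on the log2 scale.

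Rps6ka1, which encodes RSK1, had 30.1, 42.2 and 39.2 CPM in control tumors and 22.8, 38.8 and 35.0 CPM after trametinib. It had 35.9, 33.8 and 30.8 CPM after cediranib and 33.3, 36.4 and 25.2 CPM after the combination. The groups overlapped, with log2 fold changes against control from −0.23 to −0.15 and FDR of 0.515 to 0.999. An antisense gene, Gm12977, shares 247 exon bases with Rps6ka1 and had at most 83 counts in a library, against 251 to 418 for Rps6ka1. No source used here states whether counting used strand, and reads in the shared bases cannot be assigned with certainty.

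Rps6ka6, the X-linked gene for RSK4, was the lowest of the 8. It had 1.45, 2.33 and 3.03 CPM in control tumors, 2.18, 0.698 and 1.42 CPM after trametinib, 0.899, 1.61 and 2.68 CPM after cediranib and 4.54, 3.54 and 2.88 CPM after the combination. The values rest on 6 to 45 counts per library. The combination tumors lay above all trametinib tumors and above all cediranib tumors, but overlapped the control tumors. The differences of 1.32 from trametinib (SE 0.47, FDR 0.172) and 1.07 from cediranib (SE 0.46, FDR 0.187) did not pass the test. Epidermal genes were highest in the same 3 tumors, and a model holding the epidermal score gave a difference from trametinib of 1.61 (FDR 0.892). The score did not overlap between the combination and trametinib tumors, so this model cannot separate it from the added cediranib.

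Per kilobase of exon, a scale that corrects for length but not for probe capture or RNA degradation, Rps6ka3 was the highest RSK gene in control tumors. Both could alter levels between genes, so the shares of different genes are those of captured reads. Its mean level was 50.8 CPM per kilobase (SD 9.06, n = 3), against 14.0 (SD 4.67) for Rps6ka2, 8.73 (SD 1.47) for Rps6ka1 and 0.453 (SD 0.158) for Rps6ka6. Rps6ka2 made up 18.7% ± 2.50 (SD, n = 3) of the RSK sum per kilobase in control tumors and 20.6% ± 6.09 after cediranib. Its share was 4.67% ± 0.645 after trametinib and 3.19% ± 0.804 after the combination. The share of Rps6ka3 was 68.9% ± 1.72 in control tumors, 81.4% ± 2.79 after trametinib, 68.0% ± 5.78 after cediranib and 82.0% ± 2.54 after the combination. Neither share overlapped between tumors with and without trametinib. Both are parts of the same sum, so a lower level of Rps6ka2 alone raises the share of Rps6ka3.

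The summed RSK transcripts were 602 ± 127 CPM in control tumors, 444 ± 43.7 after trametinib, 589 ± 21.7 after cediranib and 429 ± 39.7 after the combination (SD, n = 3). Two-sided exact permutation tests of the trametinib and combination sums against control each gave p = 0.1, the smallest that 3 against 3 tumors allow, and 0.164 after Benjamini-Hochberg adjustment over 18 comparisons of sums.

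**Figure D3:**
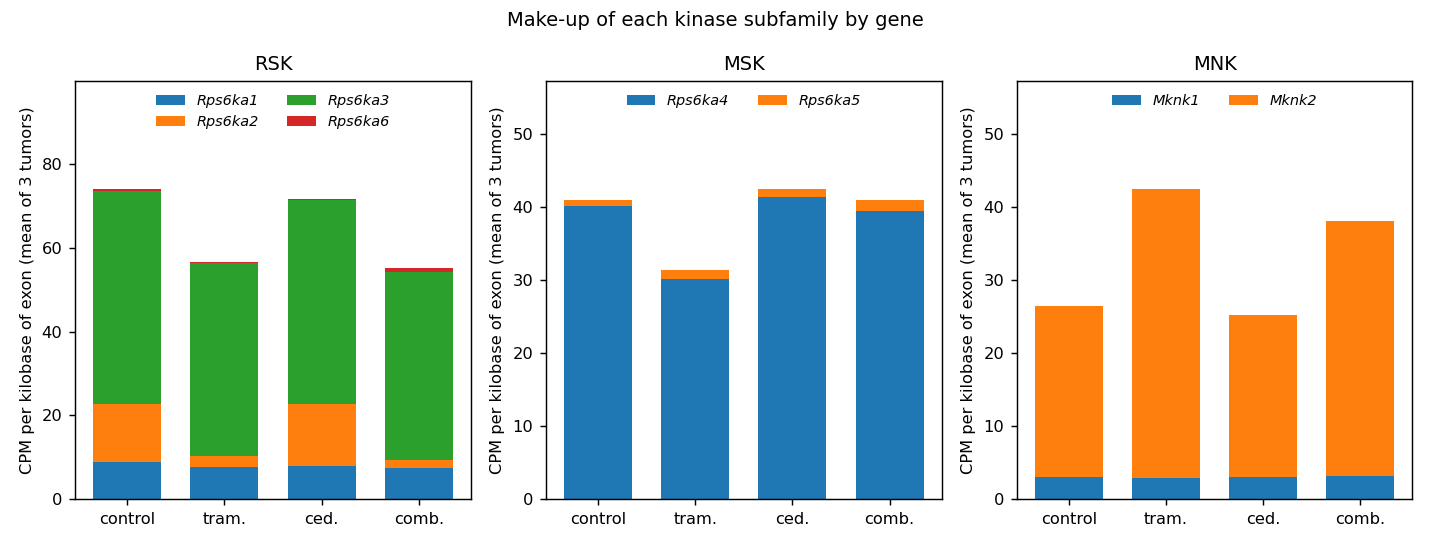
Mean CPM per kilobase of exon (n = 3 tumors) of each gene, stacked by subfamily and treatment, on linear axes from 0 that differ between panels. Rps6ka2 has a mean of 14.0 CPM per kilobase in control and 2.65 after trametinib, and Rps6ka4 and Mknk2 fill most of the MSK and MNK bars.

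Of the MSK genes, Rps6ka4 (MSK2) was much the higher, at 40.1 CPM per kilobase (SD 2.07) in control tumors against 0.853 (SD 0.503) for Rps6ka5 (MSK1). Rps6ka4 had 121, 122 and 133 CPM in control tumors and 94.0, 93.6 and 94.3 CPM after trametinib. It had 151, 105 and 131 CPM after cediranib and 138, 119 and 113 CPM after the combination. The trametinib tumors lay below all other tumors, but the change of −0.41 against control (SE 0.13) had an FDR of 0.0948 by edgeR and did not pass. DESeq2 gave a similar size (−0.42) with an adjusted p of 0.0466. Against the cediranib tumors the trametinib tumors were lower by −0.46 (SE 0.13, FDR 0.0557), with an adjusted p of 0.0216 by DESeq2. Left-out tumors moved this from −0.59 without cediranib tumor 2 to −0.33 without cediranib tumor 1, with FDR of 0.0155 to 0.204. Over all 15 alternatives the smallest difference was −0.22 and the highest FDR 0.66. Epidermal genes summed to at most 73.1 CPM after trametinib and at least 82 CPM after cediranib. The combination tumors exceeded the trametinib tumors by 0.39 (SE 0.13, FDR 0.16). With the epidermal score in the model this difference was 0.04 (FDR 0.996), and epidermal genes summed to at most 73.1 CPM after trametinib and at least 360 CPM after the combination. The score did not overlap between these groups, and in this model 0 of all genes passed an FDR of 0.05. Its part and that of the added cediranib cannot be told apart. In GENCODE M21, 654 exon bases of Rps6ka4 are shared with CAAA01066123.1, a transcript on the same strand, and reads from these cannot be separated.

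Rps6ka5 varied most among control tumors, at 16.8, 8.72 and 5.05 CPM. It had 16.3, 15.1 and 15.7 CPM after trametinib, 14.99, 10.6 and 14.3 CPM after cediranib and 17.1, 17.8 and 19.96 CPM after the combination. The combination tumors lay above all control tumors, whereas the trametinib tumors overlapped them through control tumor 1. The changes against control were 0.62 (SE 0.33, FDR 0.314) after trametinib and 0.84 (SE 0.33, FDR 0.121) after the combination, and neither passed. Control tumor 1 decided this: without it the changes were 1.17 (FDR 0.025) and 1.40 (FDR 0.00951). Without control tumor 3 they were 0.29 and 0.51. With tumors left out in turn the FDR reached 0.655 after trametinib and 0.302 after the combination. Without the filter on low counts the change after the combination was 0.85 (FDR 0.013). With the endothelial score in the model they were −0.09 and −0.13, and endothelial markers were lower in both groups.

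Mknk2 encodes MNK2, the form of MNK with the higher activity in unstimulated cells, and lies at chr10:80665327-80678112 on the minus strand. It shares no exon bases with another gene. Its level was 94.1, 99.0 and 81.4 CPM in control tumors, 123, 156 and 182 CPM after trametinib, 93.4, 85.5 and 79.8 CPM after cediranib and 156, 121 and 131 CPM after the combination. All 6 tumors that received trametinib lay above all 6 that did not. The counts behind these values were 806 to 2174 per library.

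Against control, Mknk2 rose by 0.75 on the log2 scale after trametinib (SE 0.15, FDR 0.0136, 1.68-fold) and by 0.57 after the combination (SE 0.15, FDR 0.037, 1.49-fold). Against cediranib it was higher by 0.83 in the trametinib tumors (SE 0.15, FDR 0.00691) and by 0.66 in the combination tumors (SE 0.15, FDR 0.0254). None of these reached the fold minimum of 1.5 on the log2 scale. At an FDR of 0.05 with no fold minimum, 2 of 8 members passed in each of these comparisons, Rps6ka2 downward and Mknk2 upward. Of all genes tested, 6.12% passed this rule for trametinib against control (2.64% higher, 3.47% lower), and 9.98% did for the combination against control (4.85% higher, 5.13% lower). For the combination against cediranib 7.68% passed (3.9% higher, 3.78% lower). When trametinib was set against cediranib 8.65% passed (4.19% higher, 4.47% lower).

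The FDR of Mknk2 against control passed by small margins. Leaving out control tumor 3 or trametinib tumor 3 took the FDR for trametinib against control to 0.0648 and 0.0599, with changes of 0.67 and 0.60. For the combination against control, the FDR was 0.0514 to 0.141 when any 1 of the 6 tumors was left out, with changes of 0.47 to 0.65. With the endothelial score in the model the changes were 0.70 (FDR 0.199) and 0.51 (FDR 0.619). Endothelial markers fell in the tumors where Mknk2 was higher. For the combination against cediranib, leaving out tumors in turn gave FDR of 0.035 to 0.0861, and 5 of 6 fits did not pass. For trametinib against cediranib the FDR was 0.00503 to 0.0322 in such fits.

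Mknk1, which encodes MNK1, showed no detectable difference between groups. It had 13.0, 13.6 and 13.0 CPM in control tumors, 9.80, 13.3 and 15.8 CPM after trametinib, 15.8, 13.9 and 11.3 CPM after cediranib and 10.7, 17.8 and 13.7 CPM after the combination. The groups overlapped, and the 95% interval of the change after trametinib was −0.52 to 0.47. Per kilobase, Mknk2 made up 88.9% ± 0.873 (SD, n = 3) of the MNK sum in control tumors and 93.2% ± 0.292 after trametinib. The summed MNK transcripts were 105 ± 9.31 CPM in control, 167 ± 32.4 after trametinib, 99.9 ± 9.06 after cediranib and 150 ± 14.9 after the combination. The antisense gene Gm29434, which shares 260 exon bases with Mknk1, had 0 counts.

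**Figure D4:**
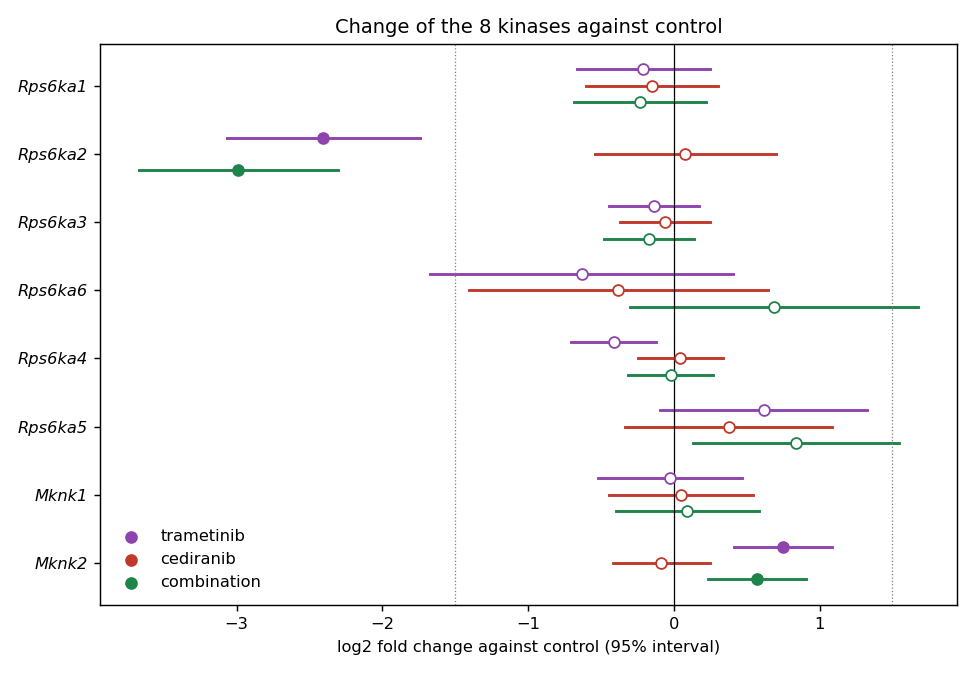
Log2 fold change against control of the 8 kinases (points, with lines for the 95% interval) after each treatment, by edgeR. Filled points have an FDR under 0.05 and dotted lines mark the fold minimum of 1.5; the filled points are Rps6ka2 at −2.41 and −2.99 and Mknk2 at 0.75 and 0.57.

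Over the 8 genes, the median log2 fold change was −0.17 after trametinib, −0.01 after cediranib and 0.03 after the combination, each against control, beside medians of 0.01, 0.00 and 0.00 over all genes tested. After trametinib 3 of 8 members did not overlap the control group (Rps6ka2, Rps6ka4 and Mknk2), as did 25.8% of all genes, and after the combination 3 of 8 did not (Rps6ka2, Rps6ka5 and Mknk2), beside 31.3% of all genes. After cediranib 0 of 8 members separated from control, beside 7.76% of all genes. For cediranib against control edgeR called 0% of all genes at an FDR of 0.05. At an unadjusted p under 0.05 it had 557 genes (4.32%) and 0 of 8 members, and DESeq2 called 6 genes, of which none was a member. Between the combination and trametinib 4 of 8 members did not overlap (24.2% of all genes) and 0 of 8 passed an FDR of 0.05 (0.969% of all genes), with 2 at an unadjusted p under 0.05 (17.9% of all genes). At the fold minimum 0.675% of all genes were called there. Against cediranib 4 of 8 members did not overlap in the combination tumors (28.4% of all genes), and 4 of 8 in the trametinib tumors (28.3%). By captured reads, with the limits of probe capture given above, the order of mean levels per kilobase in control tumors was Rps6ka3, Rps6ka4, Mknk2, Rps6ka2, Rps6ka1, Mknk1, Rps6ka5 and Rps6ka6. Rps6ka3 and Rps6ka4 overlapped in control tumors (41.9 to 60.0 and 38.7 to 42.5 CPM per kilobase), as did Rps6ka5 and Rps6ka6 (0.423 to 1.41 and 0.289 to 0.605).

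By Pearson's r of log2 CPM over the 12 tumors, Fhl3 (r = 0.97) and Ppp1r13b (0.97) were the genes most like Rps6ka2. By Spearman's rho Fhl3 was again among the 3 highest (0.96), joined by Mfhas1 and Rrp15. For Mknk2 they were Wdtc1 (0.95), Sesn1 (0.93) and Nfix (0.93), none of which was among the 3 highest by Spearman's rho. For Rps6ka4 they were Fat2 (0.93), Wnt3 (0.92) and Lrp8 (0.91), for Rps6ka5 Tdrd9 (0.93), Trim37 (0.91) and Per3 (0.91), and for Rps6ka6 Errfi1 (0.91), Zdhhc20 (0.89) and Tsnax (0.85). Among the 3 nearest were Rps3a3 (0.86) and Gm8797 (0.86) for Rps6ka1. The nearest were Tma7-ps (0.88), Fgd3 (0.85) and Tex2 (0.84) for Rps6ka3, and Gm8995 (0.94), Phf7 (0.84) and Mindy3 (0.82) for Mknk1. These are descriptions over 12 tumors that share treatments and tissue make-up.

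Most of the kinases above them did not pass the test. Mapk3 encodes ERK1, Mapk14 encodes p38 alpha and Pdpk1 encodes PDK1. Mapk3 had means of 218 CPM in control tumors, 214 after trametinib, 187 after cediranib and 191 after the combination. Its log2 fold changes against control were −0.02, −0.22 and −0.19, with FDR of 0.948, 0.999 and 0.395. Mapk14 changed by 0.01 after trametinib and 0.34 after the combination (FDR 0.976 and 0.108), and Pdpk1 by 0.06 and −0.03 (FDR 0.855 and 0.924).

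Of the 11 upstream activators, 2 fell after trametinib, 0 rose and 9 did not pass, where 3.47% of all genes fell and 2.64% rose. Map2k6, which encodes the p38 activator MKK6, had 35.3, 27.0 and 20.2 CPM in control tumors and 5.90, 9.66 and 6.45 CPM after trametinib, a change of −1.91 (SE 0.26, FDR 0.00139). Map2k3, which encodes the related MKK3, had 144, 159 and 184 CPM in control tumors and 68.8, 60.5 and 65.1 CPM after trametinib (−1.32, SE 0.17, FDR 0.000953). Both fell after the combination, by 1.42 (SE 0.25, FDR 0.00718) and 1.26 (SE 0.17, FDR 0.00164), and neither group overlapped control. After the combination 1 activator rose, Mapk13, which encodes p38 delta, a kinase known from the epidermis. Mapk13 had 33, 44 and 44 counts in the combination tumors, 21, 6 and 18 after cediranib, 8, 0 and 0 in control and 1, 0 and 0 after trametinib. It passed the test against control (FDR 0.0186) and against trametinib (FDR 0.0322), and epidermal genes were highest in the same tumors. The part of epidermal tissue in this was not tested.

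**Figure D5:**
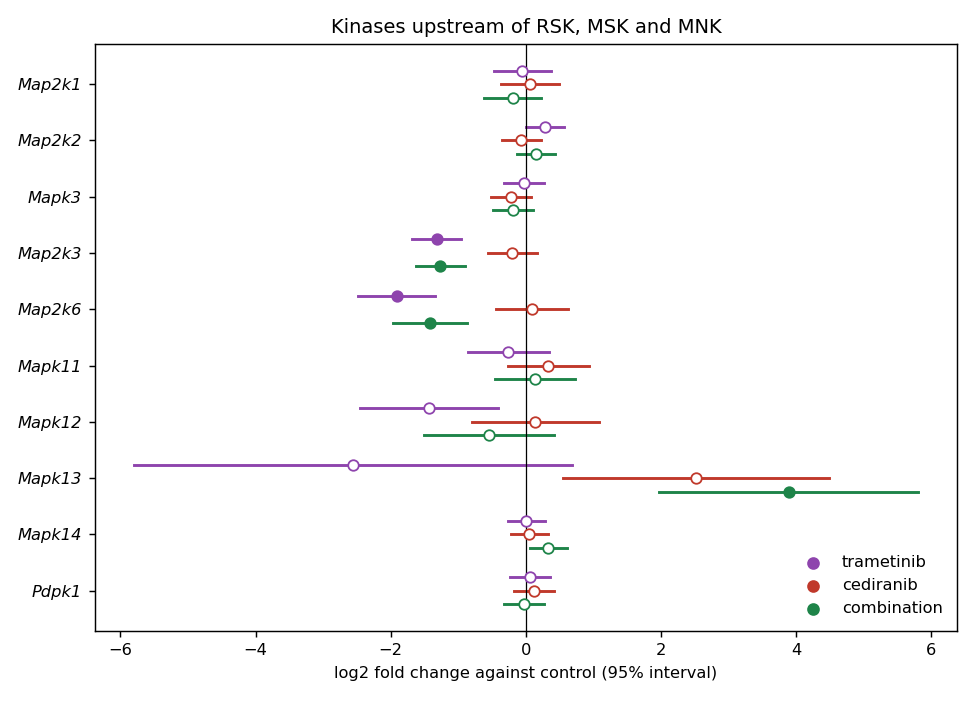
Log2 fold change against control of 10 of the 11 upstream activators (points, with lines for the 95% interval) after each treatment, by edgeR. Filled points have an FDR under 0.05; Map2k3 and Map2k6 lie below 0 after trametinib and the combination, while Mapk3, Mapk14 and Pdpk1 lie near 0.

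The closest relatives did not pass either. None of the 6 tested of 7 relatives, p70 S6 kinases and MAPKAP kinases among them, passed an FDR of 0.05 in any comparison. Of 28 tested substrates and partners, 1 fell after trametinib and 0 rose, a share close to the 3.47% of all genes that fell. The 1 was Eif4g1, the scaffold that holds MNK beside eIF4E, with 325, 354 and 395 CPM in control tumors and 267, 284 and 247 CPM after trametinib (−0.43, SE 0.11, FDR 0.0375). Eif4e itself had means of 396 CPM in control tumors, 369 after trametinib, 404 after cediranib and 339 after the combination (FDR 0.813, 0.999 and 0.447). After the combination 3 substrates fell and 2 rose, where 5.13% of all genes fell and 4.85% rose. Srf, a transcription factor that RSK phosphorylates, fell by 0.65 (SE 0.14, FDR 0.0128), and Hnrnpa1, an RNA-binding protein that MNK phosphorylates, by 0.61 (SE 0.16, FDR 0.035). Bad, the cell death regulator, rose by 0.68 (SE 0.16, FDR 0.0198). The other two, named after their values were seen, were Crem (0.80, FDR 0.037) and Pea15a (−0.35, FDR 0.0498). The median change over the substrates was −0.10 after trametinib and −0.13 after the combination.

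Genes that ERK induces fell in the tumors that received trametinib. This list was chosen with earlier results of these data known, so it is not an independent check of the labels. Of 22 tested, 14 fell after trametinib and 13 after the combination, and 0 rose, where 3.47% and 5.13% of all genes fell. The median changes were −2.22 and −1.47. Egr1, an immediate early transcription factor, had 87.3, 86.2 and 88.1 CPM in control tumors, 3.18, 3.26 and 5.11 CPM after trametinib, 57.3, 80.7 and 73.0 CPM after cediranib and 10.2, 7.17 and 10.6 CPM after the combination. Dusp6, an ERK phosphatase, fell by 3.70 after trametinib (SE 0.24, FDR 1.59e-05), and Ccnd1, cyclin D1, fell by 2.29 after trametinib and fell by 1.601 after the combination. After the combination Phlda1 fell by 1.93 (SE 0.20, FDR 0.00045). Between the combination and trametinib 5 of the 22 were higher in the combination tumors, among them Dusp6 (1.79, SE 0.24), Etv4 (1.40, SE 0.23) and Etv5 (1.58, SE 0.27). Of all genes, 0.969% passed an FDR of 0.05 there in either direction. Rps6ka2, on the same comparison, lay in the other direction at −0.58 and did not pass.

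Immediate early genes driven by CREB, the target of MSK, were mixed. Of 14 tested, 6 fell after trametinib and 0 rose, where 3.47% of all genes fell and 2.64% rose. After the combination 4 fell and 2 rose, where 5.13% of all genes fell and 4.85% rose. After trametinib Egr2 fell by 3.42 (SE 0.42, FDR 0.000778) and Junb by 0.92 (SE 0.17, FDR 0.00758), and after the combination by 2.41 (SE 0.40) and 0.74 (SE 0.17). The 2 that rose after the combination, named after their values were seen, were Crem and the nuclear receptor Nr4a2, which had 21.9, 35.6 and 26.1 CPM in control tumors and 109, 76.8 and 71.8 CPM after the combination (1.63, SE 0.46, FDR 0.0449). Of all these genes 3 stand in 2 lists, Egr1 and Crem among them. After cediranib alone none of these pathway genes passed an FDR of 0.05.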

How the data were processed

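RNA from 12 flash-frozen tumors was captured with exome probes, a method chosen by the authors because the RNA was degraded, and sequenced. Per the labels' processing notes, the authors made reads with bcl2fastq 1.8.4, aligned to GRCm38 with STAR 2.7.1a and used featureCounts 1.6.0. The count table as deposited held whole counts for each gene and was not normalized; probe capture and degradation could alter levels between genes more than within a gene. The sources used here do not state the strand setting, the annotation release or the treatment of reads that map to several places. Gene length came from the deposited table.

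Samples were grouped by title and treatment label. Genes passing filterByExpr (minimum count 10, minimum total 15; 12897 of 29102 with a count) were fitted with the edgeR 4.0.16 quasi-likelihood model in R 4.3.3, with TMM factors of 0.908 to 1.10 and all 12 libraries in 1 fit. P-values were adjusted by Benjamini-Hochberg over all genes tested. The paper gives the threshold of log2 1.5 at an FDR of 0.05 and names edgeR. Correlations used log2 CPM with a prior count of 2. Coordinates are those of the deposited table, and 5 of 8 members had the same start and end in GENCODE M21. Promoter windows are from RefSeq, cut at the start site. Sums were compared by exact permutation tests. All 8 members are named in every comparison; of the pathway lists at most the 3 genes per list with the smallest p among those at an FDR of 0.05 are named, with Mapk3, Mapk14, Pdpk1 and Eif4e always named, and per member up to 3 genes of highest r. Some genes that these rules name are not reported here. The members and lists were chosen with earlier results of these data known.

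Alternatives were other scalings (RLE size factors, library totals alone), no filter, the likelihood ratio test, DESeq2 1.42.0, only the 2 groups compared, a replicate block, an epidermal score as a covariate and leaving out each library. An endothelial score as a covariate was added after seeing the data. Each library held 9478865 to 11666094 counts, and the floor of 3 counts covers counting error only, because PCR copies were not separated from molecules. The 95% intervals come from the edgeR fit and include the spread between tumors. Of all library pairs, 0 held identical values.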

Additional observations from a re-analysis of the deposited data

Results flagged for a closer look

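The effect of cediranib on Rps6ka6 (RSK4) differed between tumors with and without trametinib by an unadjusted test. On the log2 scale cediranib changed Rps6ka6 by 1.32 (SE 0.47) when added to trametinib and by −0.38 (SE 0.47) when given alone, a difference of 1.70 (SE 0.66), which had an unadjusted p under 0.05 in edgeR. Over all genes tested the FDR of this difference was 0.682, and 909 of 12897 genes (7.05%) had an unadjusted p under 0.05 for it. The difference kept its sign under all 20 alternatives, from 1.40 to 2.18, with FDR of 0.288 to 0.87. It rests on 6 to 45 counts per library. The plot of levels by tumor shows 4.54, 3.54 and 2.88 CPM in the combination tumors, against 0.698 to 3.03 CPM in the other 9.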

How the results depend on the processing

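Over 42 log2 fold changes of the 8 genes, 576 of 650 values under an alternative kept their direction and their side of an FDR of 0.05, 20 lost the FDR, 7 gained it and 47 changed sign. Rps6ka2 was called in each of its 4 comparisons of tumors with and without trametinib under every alternative run there.

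At an FDR of 0.05 with no fold minimum, 2 members passed in each of the 4 comparisons. This count fell to 1, Rps6ka2, with the endothelial score for trametinib against control, the combination against control and the combination against cediranib. It also fell to 1 with the epidermal score for the combination against control, the combination against cediranib and trametinib against cediranib. With tumors left out in turn it ran from 1 to 3 for trametinib against control, from 1 to 2 for the combination against control, from 1 to 2 for the combination against cediranib and from 2 to 3 for trametinib against cediranib, where Rps6ka4 was the third. Without the filter on low counts 1 member, Rps6ka2, passed for the combination against trametinib (−0.56, FDR 0.0353). The cause of these changes was not tested.

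The replicate numbers in the sample titles did not pair the tumors: correlations of same-numbered deviations ran from −0.22 to 0.36, with 3 of 18 over 0.1. Of 12 libraries, 3 correlated best with their own number. The sample descriptions number most tumors otherwise, and no other pairing was tested. With the replicate number as a block, 1 member passed for the combination against control, since Mknk2 had 0.57 with an FDR of 0.0624, and the counts of the other comparisons were as before.

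The changes of sign were in differences that had not passed an FDR of 0.05 in the comparisons reported, those of Rps6ka5 among them, which were 0.62 after trametinib, 0.84 after the combination and 0.22 between these. With the endothelial score they were −0.0854 for Rps6ka5 after trametinib, −0.18 for Rps6ka2, −0.0028 for Rps6ka4 and −0.0208 for Mknk1 after cediranib, and 0.0166 for Rps6ka3, −0.13 for Rps6ka5 and −0.14 for Mknk1 after the combination. For the combination against trametinib they were 0.0212 for Rps6ka3 and −0.0490 for Rps6ka5. With the epidermal score they were −0.20 for Rps6ka2, 0.0763 for Rps6ka3, −0.10 for Rps6ka4 and −0.0093 for Rps6ka5 after cediranib and 0.0899 for Rps6ka3 after the combination. For the combination against trametinib they were 0.27 for Rps6ka1, 0.31 for Rps6ka3 and −0.98 for Rps6ka5. With library totals alone they were 0.10 for Rps6ka4 after the combination, 0.11 for Rps6ka1 and 0.10 for Rps6ka3 against trametinib, 0.0407 for Rps6ka4 against cediranib and 0.0234 for the interaction in Mknk2, where this scaling moved the median of all genes by up to 0.13. It also raised the share of higher calls for the combination against control from 246 of 466 to 320 of 511. Without the filter Rps6ka1 had 0.0039 for the combination against trametinib.

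With tumors left out in turn, signs changed within these ranges. After trametinib Mknk1 ran from −0.21 to 0.14. After cediranib Rps6ka2 ran from −0.11 to 0.38, Rps6ka3 from −0.20 to 0.0765, Rps6ka4 from −0.0870 to 0.17 and Mknk1 from −0.0696 to 0.16. After the combination Rps6ka4 ran from −0.11 to 0.0319 and Mknk1 from −0.11 to 0.26. Against trametinib Rps6ka1 ran from −0.22 to 0.13, Rps6ka3 from −0.11 to 0.0195 and Mknk1 from −0.0695 to 0.30, and against cediranib Rps6ka4 ran from −0.20 to 0.0618. The interaction in Mknk2 ran from −0.23 to 0.0717.

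Counts over all genes depended more on the settings. With low-count genes kept in, 324 genes were called for cediranib against control, 687 for trametinib and 1129 for the combination. The likelihood ratio test called 14 and DESeq2 called 6 for cediranib against control, and 0 to 7 were called with tumors left out in turn. For the combination against trametinib 87 genes were called, with 773 without the filter, 401 by the likelihood ratio test, 354 by DESeq2, 274 with only the 2 groups compared, 57 with the block, 26 with the endothelial score, 0 with the epidermal score and 0 to 21 with tumors left out in turn. The combination against control had 466, with 65 under the epidermal and 13 under the endothelial score. The combination against cediranib had 316, with 637 without the filter and 147 under the endothelial score. Trametinib against cediranib had 450, with 973 without the filter, 721 by the likelihood ratio test and 143 under the epidermal score. With tumors left out in turn these 3 comparisons had 237 to 575, 188 to 275 and 254 to 562. The interaction had 0, with 261 without the filter, 28 by the likelihood ratio test and 29 by DESeq2. With 6 to 45 counts in a library, only large changes in Rps6ka6 could be seen.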
